A study of Homo sapiens with 24 samples.

Results

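The genes described here encode the Fanconi and homologous recombination machinery that repairs DNA interstrand crosslinks. They are a list of 39 gene symbols, and all 39 were found among the 58381 gene IDs of the deposited table. Messenger RNA had been sequenced from 4 human cell lines derived from bladder cancers: T24, 5637, CLS-439 and TCC-SUP. Each line was either left untreated (NT) or given 75 µM mitomycin C (MMC) for 1 h, with RNA taken 15 h later. There are 8 groups of 3 libraries (replicates 1, 3 and 4), described by the submitters as biological replicates. All groups are cultured tumor cells with no engineered change named in the labels, and each line stands for 1 tumor. The list was divided by role into the Fanconi core complex (10 genes), the E2 enzyme with the ID2 complex (3), nucleases with their scaffold (8), end resection (4), the BRCA and XRCC group (9), the RAD54 translocases (2) and the BLM dissolvasome (3).

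Mitomycin C links the strands of the double helix covalently, so that a replication fork cannot pass. In the Fanconi pathway a core complex of proteins acts as a ubiquitin ligase and, with the E2 enzyme UBE2T, marks the FANCD2-FANCI pair. Nucleases held by the scaffold SLX4 then cut on either side of the crosslink, and the resulting break is resected and repaired by homologous recombination, in which BRCA2 and its partners prepare the broken end, RAD54 proteins drive strand exchange and the BLM complex dissolves the joint molecules.

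Counted reads per library ranged from 13791428 to 28821665. CLS-439 libraries stood apart: mitochondrial genes held 0.0238% to 0.0283% of their reads, against 3.21% to 7.4% in the other 18 libraries, and reads of processed pseudogenes made up 2.75% to 3.05%, elsewhere no more than 0.228%. CLS-439 is therefore described separately, and averages cover T24, 5637 and TCC-SUP. The part of these differences in the CLS-439 results was not tested. Epithelial markers (6 genes) summed to 1087 to 6896 CPM (counted reads scaled to a common library size) in the 24 libraries. Of 8 urothelial markers, those averaging under 1 CPM numbered 6 for T24, 5 for CLS-439, 5 for TCC-SUP and 3 for 5637, so most of these markers were near 0 outside 5637. The sum of 7 mesenchymal markers was 4175 to 11526 CPM in TCC-SUP, above that of 6 epithelial markers there (1087 to 2671), 2091 to 3391 CPM in CLS-439, 488 to 788 in 5637 and 41.6 to 90.02 in T24. Of 15 p53 target genes taken as a check of treatment, 8 rose in CLS-439 (background 0.298% of all genes tested), 7 in T24 (15.2%), 7 in TCC-SUP (9.57%) and 5 in 5637 (15.9%). None of the 15 fell, beside 0.322%, 13.4%, 11.1% and 13.6% of all genes in these lines. RNA came from bulk cultures, in which a change in the share of cells and a change in RNA per cell cannot be told apart.

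Untreated levels came first. Levels of different genes were compared as RPKM, which is CPM divided by the exon length in kb. In T24 the 3 highest members were UBE2T at 46.2 ± 2.4 RPKM (SD, n = 3), FANCG at 29.9 ± 2.85 and FANCI at 26.6 ± 5.48. RAD50 was the lowest member in T24, 5637 and CLS-439, at 0.815, 0.409 and 0.332 RPKM on average, and RAD54B was lowest in TCC-SUP at 0.54 RPKM. RAD50 encodes the ATPase of the MRN end-resection complex, and 79.7% of its exon bases lie on the same strand as exons of AC116366.3, whose highest count was 8 reads. RAD54B shares 59.1% of its exon bases in the same way with FSBP, which had at most 6 reads. How the authors' counting treated reads in shared exons is not stated in the labels or files, so the levels of RAD50 and RAD54B are uncertain.

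**Figure D1:**
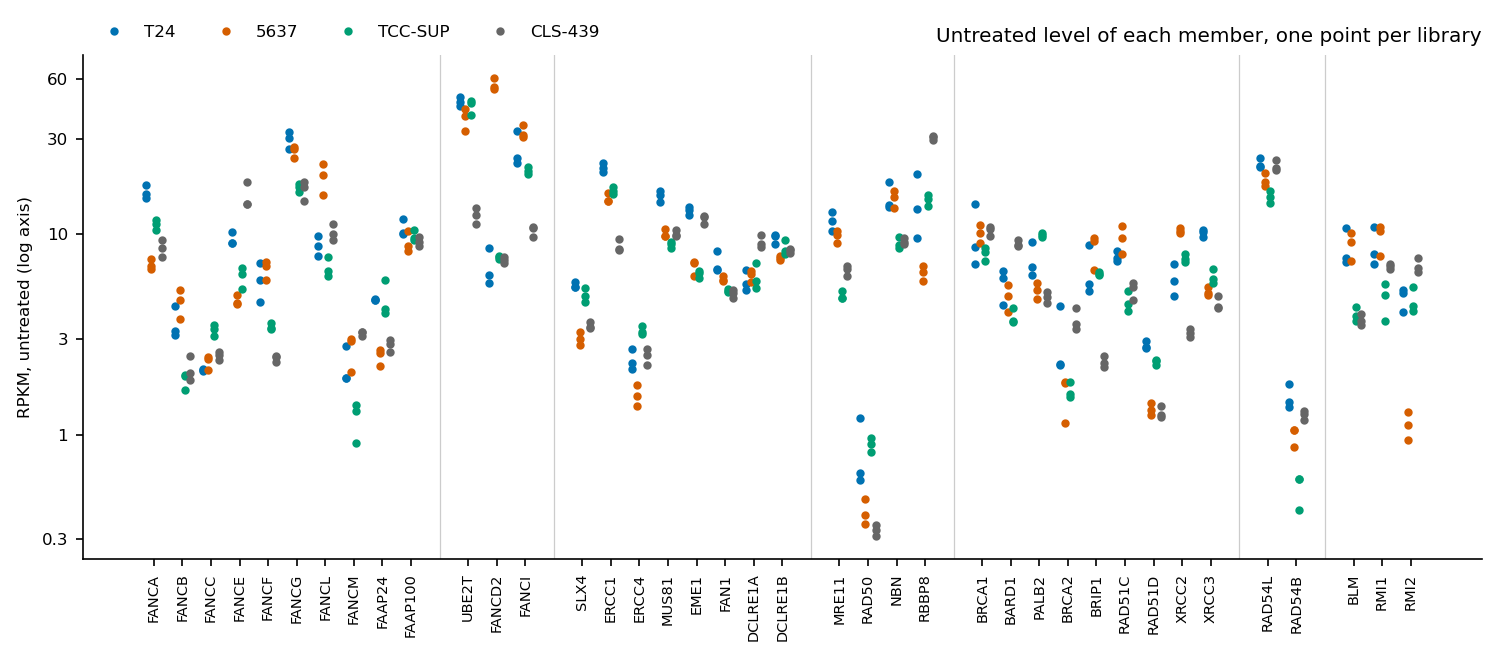
Untreated RPKM of the 39 members on a log axis, 1 point per library, coloured by cell line and ordered by role. FANCD2 in 5637 (53.3 to 60.8 RPKM) lies far above the other lines (5.72 to 8.54), and RMI2 in 5637 (0.94 to 1.3) far below them (4.1 to 7.67).

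The lines differed widely before treatment. Levels of 32 of the 39 members differed among untreated T24, 5637 and TCC-SUP at an adjusted p under 0.05, which is 82.1% of them, beside 70.1% of all 20820 genes tested. Against T24, 3 members were higher and 15 lower in 5637 (background 24.5% and 22.1%), and 1 was higher and 20 lower in TCC-SUP (28.4% and 22.9%). The median log2 difference of the 39 members was -0.27 for 5637 and -0.38 for TCC-SUP, and over all genes it was 0 and 0.01. Against 5637, 10 members were higher and 13 lower in TCC-SUP (29.5% and 27.1%). The median member was lower in both 5637 and TCC-SUP than in T24.

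FANCD2, the subunit of the ID2 pair whose ubiquitin mark activates the pathway, gave the smallest p for a difference among untreated lines. It lies on chromosome 3 from 10026414 to 10101930 on the plus strand (GRCh38). Its untreated level was 456, 509 and 447 CPM in 5637, against 47.9, 52.6 and 71.6 CPM in T24, 63, 64.4 and 65.1 CPM in TCC-SUP and 62.3, 60.1 and 64.5 CPM in CLS-439. All 3 libraries of 5637 lay above every library of the other lines. The difference from T24 was 8.2-fold (log2 3.04, SE 0.167, adjusted p 8.63e-14), and TCC-SUP lay 7.33-fold below 5637 (log2 -2.87, SE 0.166, adjusted p 1.57e-13), while T24 and TCC-SUP differed by a log2 of 0.16 with a 95% interval of -0.17 to 0.49. FANCI, its partner in the complex, was at 238, 273 and 244 CPM in untreated 5637, 177, 187 and 255 CPM in T24 and 156, 161 and 169 CPM in TCC-SUP. The FANCI levels of 5637 and T24 overlapped. Per length, FANCD2 was at 56.2 RPKM and FANCI at 32.4 in 5637, whereas FANCI was the higher of the pair in T24 (26.6 against 6.85), TCC-SUP (20.9 against 7.66) and CLS-439 (10.5 against 7.44).

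The genes on either side of FANCD2 were examined after its level had been seen. Of 23 other protein-coding genes whose starts lie within 0.5 Mb of the FANCD2 start, 17 were called higher in untreated 5637 than in both T24 and TCC-SUP, beside 17.1% of all tested protein-coding genes. Their median log2 difference from the mean of the 2 lines was 2.46, close to the 2.96 of FANCD2 itself, beside a median of 0.0399 over all tested protein-coding genes. VHL, a tumor suppressor gene whose start lies 114.6 kb away, averaged 278 CPM in 5637, 43.5 in T24 and 46.8 in TCC-SUP. RAD18, which encodes a ubiquitin ligase of DNA damage tolerance and lies 1063 kb to the other side, averaged 42.6 CPM in 5637, 41.6 in T24 and 40.1 in TCC-SUP. The higher level in 5637 thus extended to most neighbouring genes but not to RAD18, and TTLL3 and CAMK1, within the same 0.5 Mb, differed by a log2 of only 0.29 and 0.61. Over windows of 1 Mb on either side of each member's gene body, FANCD2 had the highest median of its neighbours among the 39 members, at 2.54 over 28 genes, and RBBP8 followed at 1.01 over 11 genes. RBBP8 itself went the other way from its neighbours, with a log2 difference of -1.19.

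**Figure D2:**
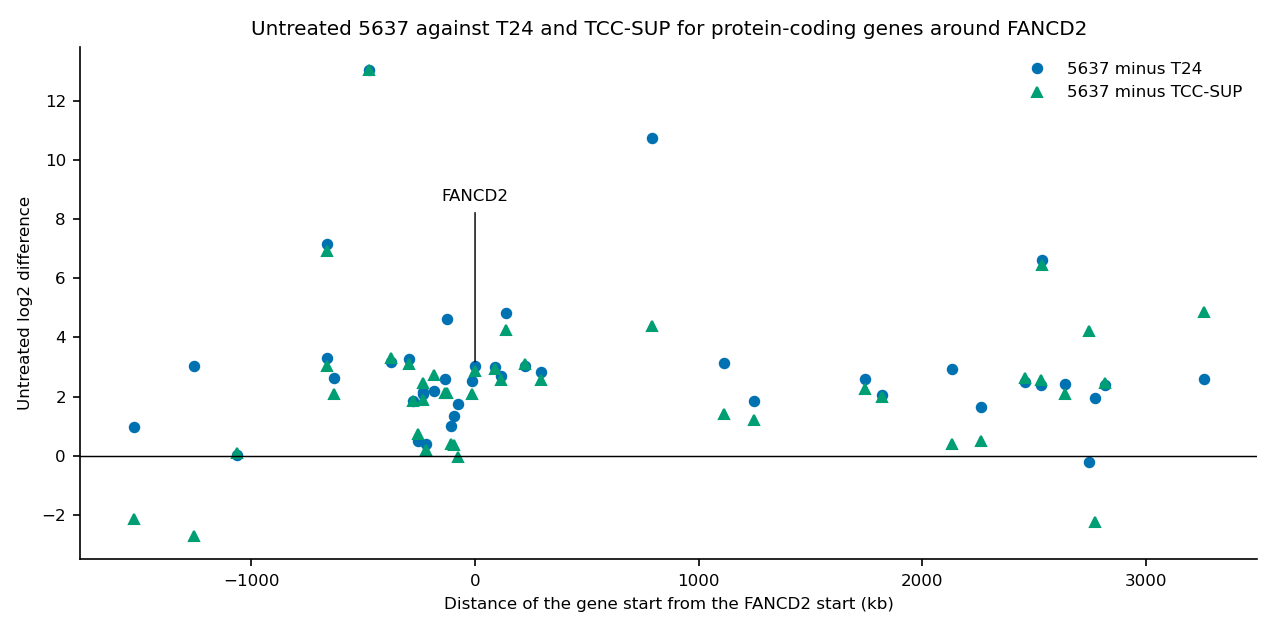
Log2 difference of untreated 5637 from untreated T24 (circles) and from untreated TCC-SUP (triangles) against the distance in kb from the FANCD2 start, for protein-coding genes at 1 CPM or more in at least 1 of these lines. Genes close to FANCD2 such as BRK1, VHL and SEC13 lie near its own difference of 3.04 from T24, and RAD18 (0.03) lies near 0.

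The next smallest p values went to RMI2, FANCA and FANCL. RMI2, a small subunit of the BLM dissolvasome, was at 4.73, 3.43 and 4.05 CPM in untreated 5637, 19.3, 18.6 and 14.9 in T24 and 19.9, 15 and 16 in TCC-SUP. All 5637 libraries lay below all others, 4.32-fold under T24 (adjusted p 2.52e-10). FANCA, a core complex subunit, was at 148, 173 and 156 CPM in T24, 65.7, 67.4 and 73.5 in 5637 and 102, 110 and 115 in TCC-SUP, with no overlap between lines and a log2 difference of -1.21 for 5637 against T24 (SE 0.135, adjusted p 4.27e-08). FANCL, the ligase subunit that carries the RING domain, was at 38, 54 and 47.9 CPM in 5637, above the 18.8 to 23.7 CPM of T24 and the 14.9 to 18.7 CPM of TCC-SUP. Its difference between 5637 and T24 was 2.19-fold (adjusted p 2e-05).

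After mitomycin C, 9 members changed in T24 (background 28.6% of all genes tested), 13 in 5637 (29.4%) and 13 in TCC-SUP (20.7%). These were 6 higher and 3 lower in T24 (background 15.2% and 13.4% of all genes tested), 11 higher and 2 lower in 5637 (15.9% and 13.6%) and 11 higher and 2 lower in TCC-SUP (9.57% and 11.1%). On the mean response over the 3 lines, 15 members rose and 6 fell (23.3% and 19.9%), with a median log2 fold change of 0.18 over all 39 against 0.02 over all genes. Rises in 5637 and TCC-SUP took a larger share of the 39 members than of all genes, falls in these lines a smaller share, and the T24 share of rises was near the background with all libraries used. Without treated replicate 1 of T24, 13 members were called higher there, beside 3584 of the 20820 genes. In each of the 3 lines 6 members were called higher: FANCG, FAAP24, UBE2T, DCLRE1B, XRCC3 and RAD54L. Of these, only RAD54L and XRCC3 kept their call in every one of these lines under all alternatives. The shares of all genes called in 3, 2 or none of the lines were not counted. FANCE and RAD54B were called higher in 2 lines, NBN lower in 2, and 19 members were called in none, BRCA1, BRCA2, PALB2, FANCD2 and FANCI among them. With the replicate number as a block, BRCA1 and RAD50 from these 19 were called in 5637 (adjusted p 0.0486 and 0.0482). PALB2 and FAAP100, also from these 19, were then called in TCC-SUP (adjusted p 0.046 and 0.0297).

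**Figure D3:**
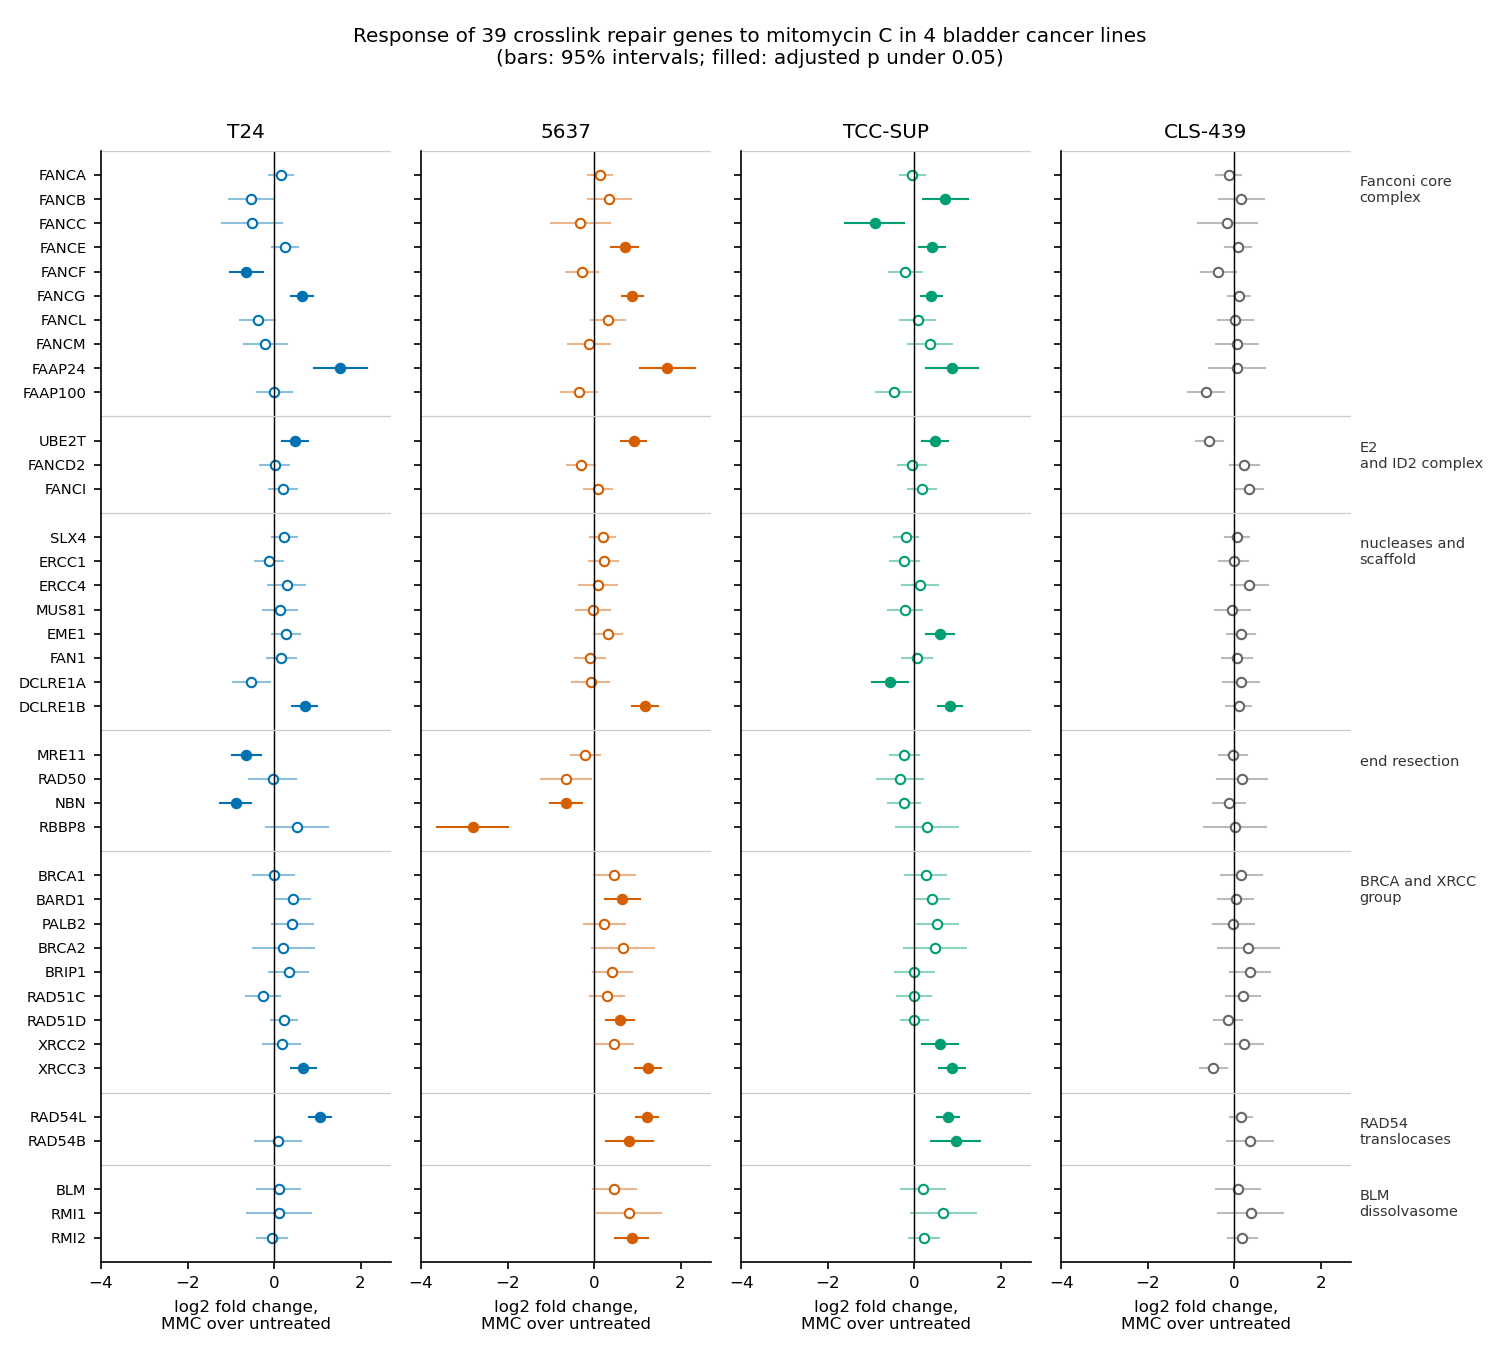
Log2 fold change of each member, MMC over untreated, in the 4 lines, with 95% intervals (3 against 3 libraries). Filled points have an adjusted p under 0.05, and the 6 members filled on the right in T24, 5637 and TCC-SUP are FANCG, FAAP24, UBE2T, DCLRE1B, XRCC3 and RAD54L, while no point of CLS-439 is filled.

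Promoters were compared for the 4 members that rose with the smallest p and for 1 that fell, namely RAD54L, DCLRE1B, XRCC3, FANCG and MRE11. They are shown so that members that moved together can be set beside one that moved the other way. Each window is 300 bases from RefSeq (GRCh38.p14), 250 before to 50 after the RefSeq start, 5′ to 3′ on the gene's strand, with motif matches in capitals. The motifs searched on both strands were the E2F site TTTNNCGC, the NF-Y box CCAAT and the cell cycle homology region TTTGAA or TTCGAA, and no matches overlap in these 5 windows.

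RAD54L, chr1:46247438-46247737, plus strand: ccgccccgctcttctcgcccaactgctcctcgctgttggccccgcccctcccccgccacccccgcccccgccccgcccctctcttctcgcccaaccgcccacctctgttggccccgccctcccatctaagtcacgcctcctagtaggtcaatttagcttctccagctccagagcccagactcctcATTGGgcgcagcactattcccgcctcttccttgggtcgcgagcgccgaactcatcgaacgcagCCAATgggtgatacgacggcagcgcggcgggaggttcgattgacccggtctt
DCLRE1B, chr1:113905076-113905375, plus strand: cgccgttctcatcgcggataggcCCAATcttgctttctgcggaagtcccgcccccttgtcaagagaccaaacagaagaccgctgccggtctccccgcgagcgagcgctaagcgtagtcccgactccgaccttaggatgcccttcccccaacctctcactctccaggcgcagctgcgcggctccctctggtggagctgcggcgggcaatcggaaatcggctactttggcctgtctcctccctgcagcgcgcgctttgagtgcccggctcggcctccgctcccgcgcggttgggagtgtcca
XRCC3, chr14:103715402-103715701, minus strand: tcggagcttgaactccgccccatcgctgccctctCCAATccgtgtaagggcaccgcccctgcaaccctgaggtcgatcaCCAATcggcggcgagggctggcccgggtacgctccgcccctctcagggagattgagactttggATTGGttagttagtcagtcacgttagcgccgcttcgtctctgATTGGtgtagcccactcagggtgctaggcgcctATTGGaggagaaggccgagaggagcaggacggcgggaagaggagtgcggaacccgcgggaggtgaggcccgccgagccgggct
FANCG, chr9:35079893-35080192, minus strand: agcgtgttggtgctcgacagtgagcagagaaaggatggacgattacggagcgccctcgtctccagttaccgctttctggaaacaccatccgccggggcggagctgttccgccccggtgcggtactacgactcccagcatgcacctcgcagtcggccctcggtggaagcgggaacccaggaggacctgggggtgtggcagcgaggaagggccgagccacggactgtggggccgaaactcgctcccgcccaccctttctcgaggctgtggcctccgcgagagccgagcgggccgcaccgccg
MRE11, chr11:94493795-94494094, minus strand: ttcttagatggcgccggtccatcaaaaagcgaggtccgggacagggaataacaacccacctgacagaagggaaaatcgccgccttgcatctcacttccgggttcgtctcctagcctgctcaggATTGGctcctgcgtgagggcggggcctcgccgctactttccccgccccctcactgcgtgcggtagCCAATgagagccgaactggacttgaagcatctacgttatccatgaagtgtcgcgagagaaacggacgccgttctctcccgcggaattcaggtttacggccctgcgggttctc

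The capitals in these windows all mark NF-Y boxes, written CCAAT or, on the other strand, ATTGG. XRCC3 holds 5, RAD54L 2 and MRE11 2, DCLRE1B 1, and FANCG holds none of the 3 motifs. The NF-Y box therefore occurs both in members that rose and in one that fell. Of 35 members matched in the RefSeq table, 10 have more than 1 start, and the window nearest the GENCODE start was taken. For DCLRE1B that start is 185 bases away. The shares count a gene when any of its starts has a match. An NF-Y box was present in 16 of them (45.7%), against 39.7% of all 27305 genes in the table, an E2F site in 5 (14.3%, against 8.23%) and a cell cycle homology region in 5 (14.3%, against 19.5%). E2F sites lay in FANCA, FANCC, FANCD2, RMI1 and XRCC2. A match is only a description of these letters.

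In the core complex, 3 of 10 members rose on the mean response, 2 fell and 5 were not called, shares close to those of all genes (23.3% rose and 19.9% fell). The same background stands beside the mean-response counts of each role group and gene list that follows. FAAP24 (chromosome 19, 32972209 to 32978222, plus strand) encodes the partner of FANCM that helps anchor the complex on DNA. It went from 11.2, 11.3 and 11.2 CPM to 18.8, 40.8 and 37.9 in T24, from 6.25, 6.04 and 5.19 to 9.31, 28.1 and 19.1 in 5637, and from 9.63, 14 and 10 to 15.8, 24.6 and 21.3 in TCC-SUP. Treated libraries lay above untreated ones in each of these lines, and treated replicate 1 was the lowest of the treated libraries each time. The mean change was 2.58-fold (log2 1.37, SE 0.169, adjusted p 4.42e-07). FANCM itself, the translocase that FAAP24 binds, had a mean log2 change of 0.02 (95% interval -0.27 to 0.3).

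FANCG (chromosome 9, 35073835 to 35080016, minus strand), a bridging subunit of the core complex, went from 110, 118 and 97.1 CPM to 168, 162 and 177 in T24. In 5637 it went from 98.3, 96.4 and 87.6 to 189, 164 and 168, and in TCC-SUP from 58.8, 62.6 and 64.4 to 91.9, 78.6 and 74.4. The groups did not overlap in these lines, and the mean change was 1.56-fold (adjusted p 4.05e-08). FANCE, which links the core to FANCD2, rose by a mean log2 of 0.46 (SE 0.0832, adjusted p 7.44e-05). FANCA, FANCB, FANCL and FANCM had mean log2 changes between 0.02 and 0.18, and FAAP100 had -0.27 (adjusted p 0.0536), none of them called. ZNF276, which covers 23.6% of the FANCA exon bases on the opposite strand, was called lower in 5637 only (log2 -0.63, adjusted p 0.00223).

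FANCC and FANCF were the core members that fell on the mean response, by 0.58 (adjusted p 0.0142) and 0.37 (adjusted p 0.00485) on the log2 scale. FANCC (chromosome 9, 95099054 to 95426796) spans 327.7 kb and is the longest of the 39 genes. Its untreated level was 27.3, 26.9 and 26.8 CPM in T24 and its treated level 32.2, 10.1 and 14.9. In 5637 it went from 30.5, 31.3 and 26.9 to 35.1, 16.3 and 20.1, and in TCC-SUP from 45.4, 39.8 and 43.2 to 35, 13 and 20.6. Treated replicate 1 was above all untreated libraries in T24 and 5637, where the other treated libraries were below them. Without replicate 1 of all groups, FANCC was called lower in all 3 lines, with log2 changes of -1.1 in T24, -0.72 in 5637 and -1.32 in TCC-SUP (adjusted p 0.000214, 0.00683 and 3.41e-05).

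**Figure D4:**
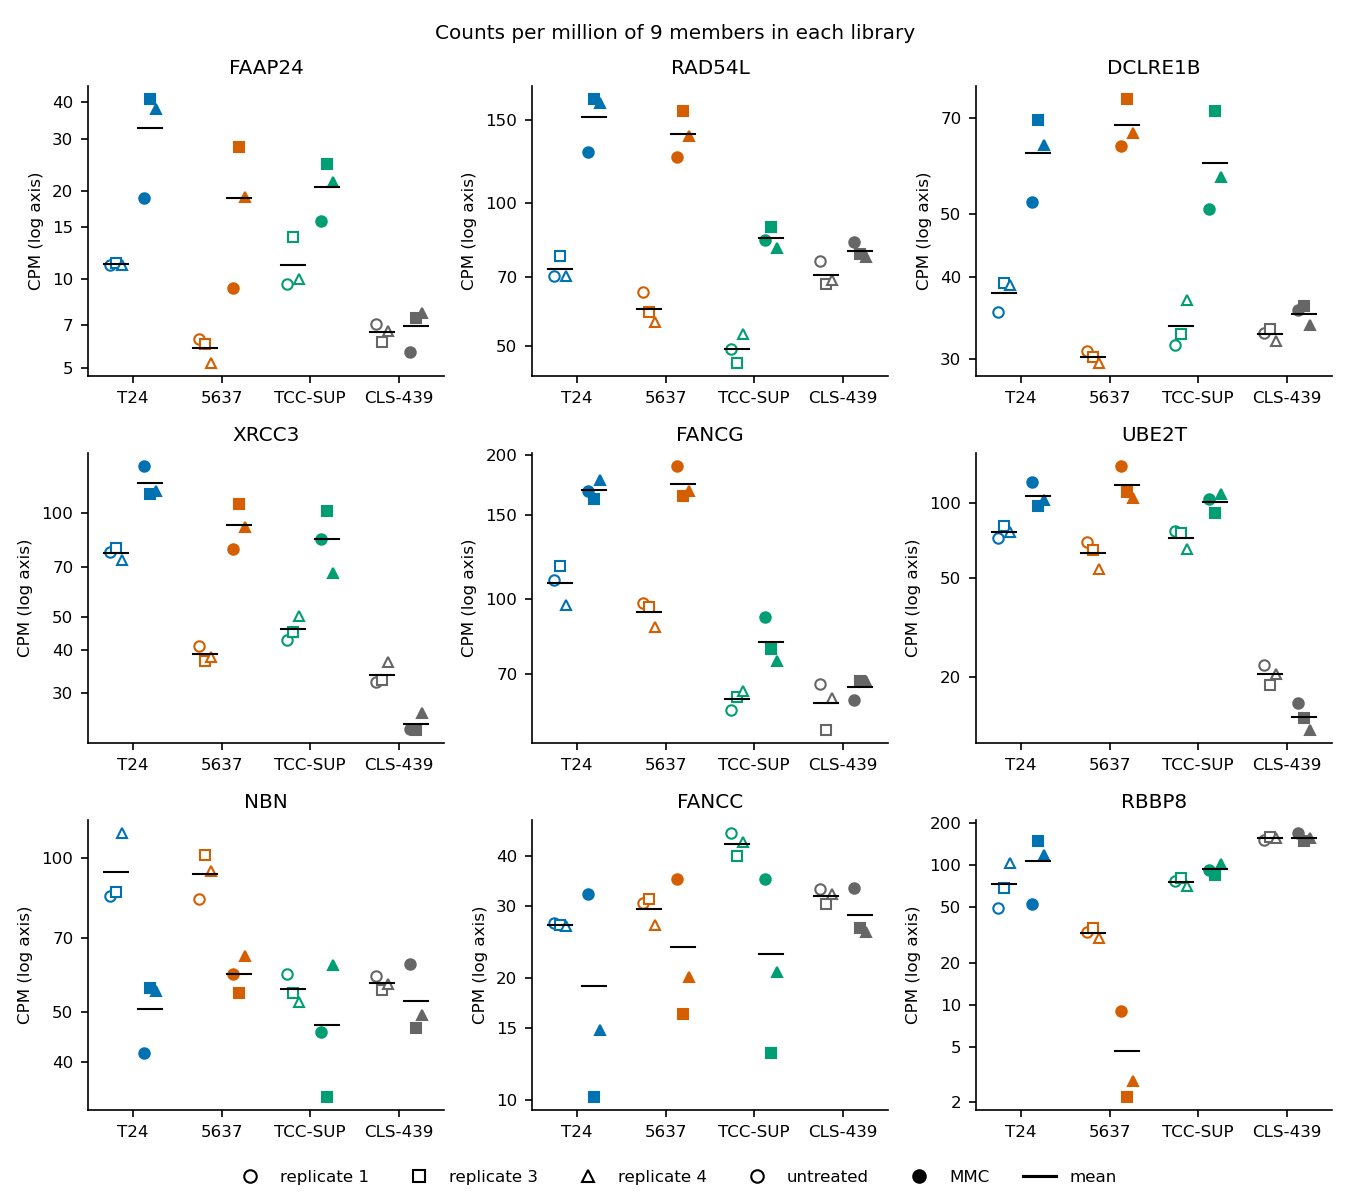
CPM of 9 members in each library on log axes, open symbols for untreated and filled for MMC, with circles, squares and triangles for replicates 1, 3 and 4 and a bar at each mean. FAAP24, RAD54L, DCLRE1B, XRCC3, FANCG and UBE2T rise in T24, 5637 and TCC-SUP, and the filled circle of FANCC (replicate 1: 32.2, 35.1 and 35 CPM) stands above the other treated points in these lines.

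At the ubiquitin step, UBE2T rose and the ID2 pair was not called. UBE2T, the E2 enzyme that passes ubiquitin to FANCD2 and FANCI, went from 72.5, 80.4 and 76.1 CPM to 121, 96.8 and 102 in T24, from 69.7, 64.4 and 54.5 to 140, 111 and 104 in 5637, and from 76.9, 75.3 and 65 to 104, 90.9 and 109 in TCC-SUP. Groups did not overlap, and the mean change was 1.54-fold (log2 0.63, SE 0.0804, adjusted p 8e-07). FANCI went from 177, 187 and 255 to 201, 274 and 242 CPM in T24, from 238, 273 and 244 to 304, 241 and 262 in 5637, and from 156, 161 and 169 to 227, 147 and 178 in TCC-SUP, so treated and untreated libraries overlapped in each of these lines. FANCD2 went from 456, 509 and 447 to 433, 349 and 358 CPM in 5637. The mean log2 changes were 0.16 for FANCI (95% interval -0.02 to 0.35) and -0.12 for FANCD2 (-0.31 to 0.08).

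Among the nucleases and their scaffold, DCLRE1B and EME1 rose on the mean response, DCLRE1A fell and 5 of 8 were not called. With the replicate number as a block, DCLRE1A was also called lower in T24 (log2 -0.58, adjusted p 0.0125). DCLRE1B (chromosome 1, 113905141 to 113914086, plus strand) encodes Apollo, an exonuclease that also acts at telomeres. It went from 35.4, 39.1 and 38.8 CPM to 52.1, 69.5 and 63.7 in T24, from 30.8, 30.1 and 29.5 to 63.5, 74.8 and 66.4 in 5637, and from 31.4, 32.7 and 36.9 to 50.8, 71.8 and 56.8 in TCC-SUP. Groups did not overlap, and the mean change was 1.87-fold (log2 0.91, SE 0.0783, adjusted p 2.2e-09). EME1, the partner subunit of MUS81, went from 41.3, 45.3 and 43.9 to 40.7, 62.9 and 53.9 CPM in T24, from 23.9, 23.8 and 20.5 to 24.4, 34.3 and 26.4 in 5637, and from 19.9, 21.1 and 21.6 to 29.7, 35 and 30 in TCC-SUP. Only TCC-SUP was called on its own, although the 5637 groups did not overlap either. MUS81, the catalytic subunit, had a mean log2 change of -0.03 (95% interval -0.26 to 0.2). SLX4, ERCC1, ERCC4 and FAN1, the scaffold, both subunits of the XPF nuclease and the FANCD2-associated nuclease, had mean changes between -0.04 and 0.17 and were not called. CD3EAP, which covers 28.6% of the ERCC1 exon bases on the opposite strand, was called higher in TCC-SUP only (log2 0.86, adjusted p 0.000561).

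In end resection, 3 of 4 members fell on the mean response (19.9% of all genes) and none rose. They were NBN, MRE11 and RBBP8, the last of which was called lower in 5637, with log2 changes of 0.54 in T24 and 0.29 in TCC-SUP that were not called. NBN, the subunit of the MRE11 complex that recruits the ATM kinase, went from 84.5, 86.1 and 112 CPM to 41.7, 55.9 and 55 in T24 and from 83.4, 101 and 94.7 to 59.5, 54.6 and 64.3 in 5637. In TCC-SUP it went from 59.5, 54.6 and 52.5 to 45.9, 34.1 and 61.8, with overlap. The mean change was -0.59 on the log2 scale (SE 0.0997, adjusted p 3.25e-05). MRE11, the nuclease of the complex, went from 79.9, 89.4 and 100 to 44.8, 66.6 and 61 CPM in T24, from 69.4, 76.4 and 79.8 to 59.8, 63.1 and 73.1 in 5637 and from 40.2, 36.9 and 36.9 to 37.5, 26.7 and 32.9 in TCC-SUP. Only the T24 groups did not overlap, and MRE11 was called in T24 and on the mean response (log2 -0.36, SE 0.0906, adjusted p 0.00216).

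RBBP8, which encodes CtIP, the cofactor that starts resection, was the member whose response differed most among the 3 lines (adjusted p 0.000286). It lies on chromosome 18 from 22798261 to 23026488 on the plus strand. In 5637 it went from 32.9, 35.4 and 29.8 CPM to 8.98, 2.18 and 2.83, a 7.01-fold fall (log2 -2.81, SE 0.383, adjusted p 9.58e-06). In T24 it went from 49.1, 68.5 and 103 to 52.6, 149 and 119 CPM and in TCC-SUP from 76.6, 80.6 and 70.6 to 91.5, 84.9 and 102. All treated 5637 libraries were below all untreated ones, T24 groups overlapped, and all treated TCC-SUP libraries were above all untreated ones without a call (adjusted p 0.601). The 5637 response was lower than that of T24 by 3.35 on the log2 scale (SE 0.509, adjusted p 0.000491) and lower than that of TCC-SUP by a similar amount (TCC-SUP minus 5637 was 3.1, SE 0.508, adjusted p 0.00117). T24 and TCC-SUP responses differed by -0.25 with a 95% interval of -1.26 to 0.76. The mean fall of RBBP8 over the lines therefore rests on 5637. Its neighbours, looked up after this value was seen, had a median log2 response of 0.24 in 5637 over the 11 other protein-coding genes within 1 Mb, and were called in both directions. CABLES1 (-1.43) and TMEM241 (-1.47) were called lower (background 13.6%), and GATA6 (0.86), RMC1 (0.86) and NPC1 (0.79) were called higher (15.9%).

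Leaving out replicate 3 or replicate 4 of all groups, which leaves 2 libraries per group, ended the calls of these differences between lines and of the mean response. The 5637 response minus that of T24 was then -2.56 and -3.38 (adjusted p 0.0618 and 0.0981), TCC-SUP minus 5637 was 2.79 and 2.78 (0.0533 and 0.277), and the mean response was -0.61 and -0.56 (0.0637 and 0.16). The fall in 5637 itself stayed called, at -2.4 and -2.62 (0.00165 and 0.00763). RBBP8 in T24, at a log2 change of 0.54 (adjusted p 0.258), was called higher with no filter on low counts (0.51, adjusted p 0.0197), without replicate 1 of all groups (0.64, adjusted p 0.00502) and without treated replicate 1 of T24 (0.87, adjusted p 0.0486).

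In the BRCA and XRCC group, 5 of 9 members rose on the mean response and none fell. XRCC3 (chromosome 14, 103697609 to 103715504, minus strand) encodes a recombination protein that pairs with RAD51C. It went from 77.4, 79.2 and 73 CPM to 137, 114 and 116 in T24, from 41.2, 37.3 and 38.2 to 78.9, 106 and 91.5 in 5637, and from 42.9, 45.1 and 50.4 to 84, 102 and 67.1 in TCC-SUP. Groups did not overlap, and the mean change was 1.91-fold (log2 0.93, SE 0.0817, adjusted p 2.73e-09). KLC1, which covers 76.7% of the XRCC3 exon bases on the opposite strand, had log2 changes of -0.01, -0.09 and -0.03 in the 3 lines and was not called. RAD51C, the partner of XRCC3, had a mean log2 change of 0.02 (95% interval -0.21 to 0.24).

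BARD1, the RING partner of BRCA1, went from 26.8, 36.8 and 40 to 30.6, 54.9 and 54.7 CPM in T24, from 24.9, 29.8 and 34 to 41.5, 41.9 and 56.4 in 5637, and from 22.1, 22.4 and 26.1 to 30.3, 27.4 and 35.9 in TCC-SUP. The groups overlapped in T24 and not in 5637 or TCC-SUP, and the mean change was 1.41-fold (adjusted p 0.00068). PALB2, RAD51D and XRCC2 rose by 0.4, 0.28 and 0.42 on the log2 scale. The mean log2 change was 0.24 for BRCA1 (95% interval -0.03 to 0.52), 0.46 for BRCA2 (0.04 to 0.87, adjusted p 0.0617) and 0.26 for the helicase gene BRIP1 (adjusted p 0.0947), none of them called. Some alternatives called BRCA2 higher: DESeq2 (adjusted p 0.0462), no filter on low counts (0.000741) and the replicate block (0.0329). With the replicate number as a block, BRCA1 and XRCC2 were called higher in 5637 (log2 0.46 and 0.47, adjusted p 0.0486 and 0.0332) and RAD50 lower (-0.65, adjusted p 0.0482). The block also called BARD1 higher in T24 and TCC-SUP (0.41 and 0.4, adjusted p 0.0207 and 0.0293) and PALB2 in TCC-SUP (0.53, adjusted p 0.046).

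Both RAD54 translocases rose on the mean response. RAD54L (chromosome 1, 46247688 to 46278473, plus strand) had the smallest p of all members. It went from 70.2, 77.5 and 70.3 CPM to 128, 166 and 163 in T24, from 64.9, 59 and 56.2 to 125, 157 and 139 in 5637 and from 49.3, 46.1 and 53 to 83.7, 89.3 and 80.5 in TCC-SUP. Groups were far apart in each of these lines, and the mean change was 2.03-fold (log2 1.02, SE 0.0694, adjusted p 5.19e-11). LRRC41 covers 25.1% of its exon bases on the opposite strand and was not called in any line. RAD54B, the second translocase, was counted at low levels throughout, which are uncertain because of the exons shared with FSBP. It went from 7.28, 7.72 and 9.51 to 5.14, 11.1 and 9.72 CPM in T24, from 5.59, 4.59 and 5.61 to 8.19, 10.3 and 9.25 in 5637 and from 3.19, 3.2 and 2.23 to 4.35, 4.52 and 8 in TCC-SUP. The T24 groups overlapped, and the mean change was 1.54-fold (adjusted p 0.00131).

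In the BLM dissolvasome, RMI2 and RMI1 rose on the mean response and BLM, the helicase, was not called (log2 0.26, 95% interval -0.03 to 0.55). RMI2 went from 4.73, 3.43 and 4.05 CPM to 7.02, 7.64 and 7.58 in 5637, from 19.3, 18.6 and 14.9 to 16.2, 18.2 and 16.7 in T24 and from 19.9, 15 and 16 to 23, 17.4 and 19 in TCC-SUP. Only the 5637 groups did not overlap, and even its treated level stayed below the untreated level of the other lines. The responses of RMI2 differed among the lines (adjusted p 0.0468), by 0.91 on the log2 scale between 5637 and T24 (SE 0.241, adjusted p 0.0348). Leaving out single libraries ended that call for 7 of 12 (adjusted p 0.0669 to 0.124): untreated replicates 1 and 3 and treated 4 of T24, and untreated and treated replicates 3 and 4 of 5637. RMI1, the subunit that holds the complex together, went from 25, 28 and 38.1 to 12.5, 55 and 31.2 CPM in T24, from 27.3, 38.2 and 36.7 to 34.3, 82.1 and 61.5 in 5637 and from 19.9, 17.6 and 12.9 to 18.5, 30 and 32.2 in TCC-SUP. Treated replicate 1 was the lowest treated library in each of these lines. The mean response of RMI1 (log2 0.53, adjusted p 0.0369) was not called with the replicate block (0.43, adjusted p 0.061) or without the CLS-439 libraries (0.52, adjusted p 0.0653). It was also lost without 11 of 18 single libraries, with values from 0.32 to 0.65, and held without treated replicate 1 of any line.

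Outside RBBP8 and RMI2, no member's response was called as differing among the 3 lines, beside 6.86% of all genes. In pairs of lines, 1 member responded more and 1 less in 5637 than in T24 (1.7% and 1.77% of genes), 1 more and 0 less in TCC-SUP than in T24 (1.38% and 2.42%) and 1 more and 0 less in TCC-SUP than in 5637 (0.97% and 1.73%). FANCB, a core complex subunit encoded on chromosome X, came next (adjusted p 0.0523). It went from 11.4, 11.8 and 15.7 CPM to 5.52, 12.1 and 9.28 in T24, from 13.5, 16.9 and 19 to 20.1, 20.1 and 23.2 in 5637 and from 7.12, 7.03 and 5.99 to 8.78, 8.95 and 15.4 in TCC-SUP. The TCC-SUP and T24 responses differed by 1.25 (SE 0.342, adjusted p 0.0395). Of the 12 libraries of these lines left out singly, 9 ended the call (adjusted p 0.0526 to 0.17). It held without treated replicate 3 of T24 and without treated replicate 1 or 3 of TCC-SUP.

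Before treatment, 9 members were higher in CLS-439 than the mean of the other lines and 19 lower (40.4% and 34.2% of genes). UBE2T had the lowest log2 difference, -1.77, and RBBP8 the highest, 1.45. After mitomycin C the responses in CLS-439 were small, with no member called (background 0.62% of genes in either direction, 0.298% higher and 0.322% lower). In edgeR, 4 members had an unadjusted p under 0.05 (FAAP100, UBE2T, FANCI and XRCC3), and DESeq2 called 0 higher and 1 lower. The 6 members that rose in the 3 other lines had log2 changes of 0.11 (FANCG), 0.07 (FAAP24), -0.57 (UBE2T), 0.1 (DCLRE1B), -0.48 (XRCC3) and 0.17 (RAD54L). UBE2T went from 22.5, 18.7 and 20.6 CPM to 15.7, 13.7 and 12.3, and XRCC3 from 32.3, 32.6 and 36.9 to 23.6, 23.4 and 26.2, without overlap in either gene. The response of CLS-439 was lower than the mean of the 3 lines for these 6 members (background 5.78% of genes lower and 4.78% higher, with 0 members higher), most for XRCC3 (log2 -1.41, SE 0.166, adjusted p 1.38e-05) and UBE2T (-1.2, SE 0.167, adjusted p 8.99e-05). Because these 6 rose in the 3 lines, which are 1 side of this difference, a lower value in CLS-439 was favoured in advance. Of these 6 calls, only that of XRCC3 held under all alternatives. Without replicate 3 of all groups, RAD54L, DCLRE1B, FANCG and FAAP24 were not called (adjusted p 0.053, 0.1, 0.08 and 0.136). When CLS-439 was fitted alone, UBE2T and XRCC3 were called lower (adjusted p 0.0356 and 0.0293), as was FAAP100 (0.0149), and FANCI higher (0.0467). Levels in this line are relative to libraries that stand apart in mitochondrial and pseudogene reads, as given above.

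Another 40 genes of the pathway are not members. Of 39 tested, 16 rose and 5 fell on the mean response, beside 23.3% and 19.9% of all genes. The largest rises were PSMC3IP, a cofactor of strand exchange (2.62-fold, log2 1.39, SE 0.0907, adjusted p 2.72e-11), EXO1, a resection nuclease (2.27-fold, adjusted p 1.83e-06), and HROB, which loads the MCM8-MCM9 helicase (1.83-fold, adjusted p 4.66e-09). PSMC3IP went from 45.6, 51.8 and 59.8 CPM to 105, 171 and 178 in T24, from 51, 52 and 43.6 to 134, 170 and 151 in 5637 and from 44.4, 47.8 and 49.8 to 90.7, 99.6 and 94 in TCC-SUP. The largest falls were RAD51B (4.76-fold, adjusted p 6.57e-10), whose gene spans 910.4 kb, ABRAXAS1, a BRCA1 complex scaffold (1.79-fold, adjusted p 2.1e-05), and RTEL1, a helicase (1.69-fold, adjusted p 0.000773). RAD51B went from 5.7, 3.98 and 6.04 to 1.57, 0.819 and 1.5 CPM in T24, and it was lower in all treated libraries of 5637 and TCC-SUP as well. None of RAD51C, RAD51D, XRCC2 and XRCC3 fell.

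Many of these genes are expressed with DNA replication, and genes of the cell cycle moved at the same time. Of 30 G1/S and DNA replication genes, 20 rose and 3 fell on the mean response, with a median log2 change of 0.38 (all genes 0.02). Of 28 G2 and mitosis genes, 19 fell and none rose, with a median of -0.55. In CLS-439, 0 of the 30 rose and 1 fell, and 6 of the 28 fell (background there 0.298% higher and 0.322% lower). Their part in the members' changes was not tested.

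Gene length moved with the response as well. Among tested protein-coding genes, the median mean response was 0.2 for 6233 genes spanning under 25 kb and -0.73 for 1775 spanning over 150 kb. The 12 members under 25 kb had a median of 0.5, and the 3 members over 150 kb were FANCC (-0.58), RBBP8 (-0.66) and BRIP1 (0.26). The Spearman correlation of span with the mean response was -0.321 over the 39 members and -0.422 over 14776 protein-coding genes, a description across genes measured in the same libraries. Of the 6 members that rose in the 3 lines, 5 span under 25 kb, and RAD54L spans 30.8 kb. Short genes were also among those called lower: FANCF spans 3 kb (-0.37) and DCLRE1A 19.7 kb (-0.39). In CLS-439 the median response of genes over 150 kb was -0.13, and the correlation of span with the response was 0.246 over the members and -0.0464 over protein-coding genes.

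**Figure D5:**
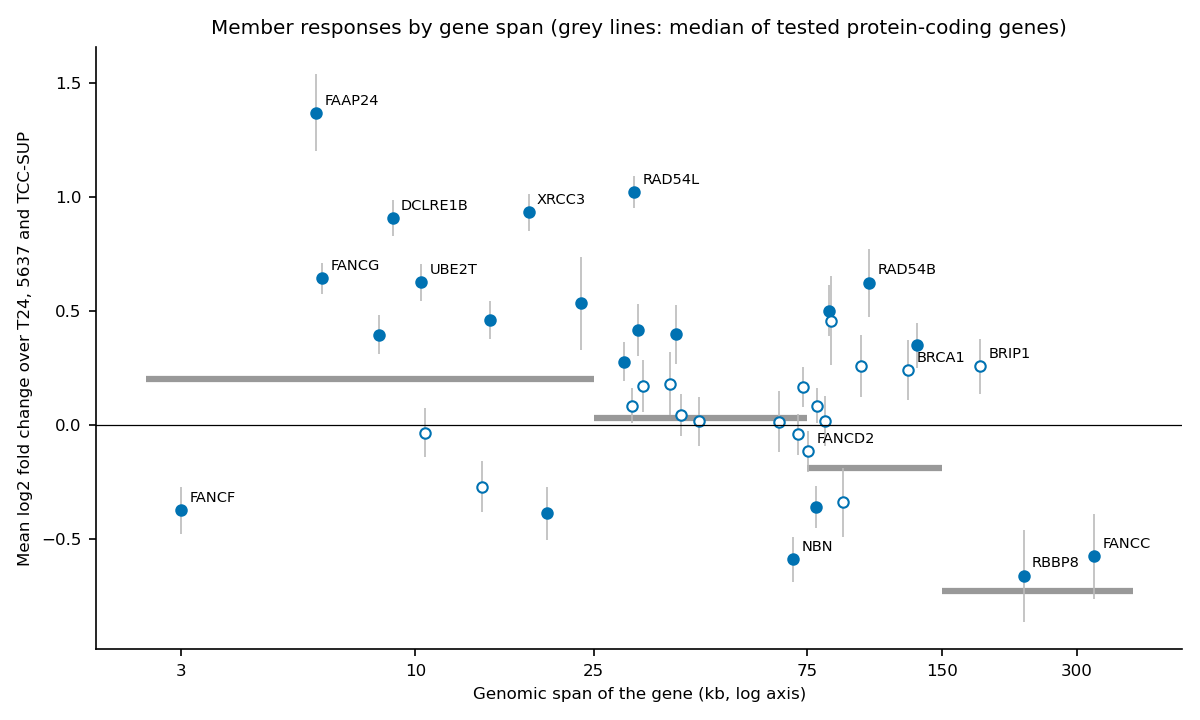
Mean log2 fold change over T24, 5637 and TCC-SUP of each member, with its SE, against the genomic span of its gene in kb on a log axis. Filled points are called, and grey lines give the median of tested protein-coding genes in 4 span classes, which fall from 0.2 under 25 kb to -0.73 over 150 kb.

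Treated replicate 1 of T24 stood apart for the list as a whole. The median log2 change of the 39 members against the untreated mean was -0.17 in that library and 0.34 and 0.19 in replicates 3 and 4. Replicate 1 was the lowest of the treated libraries for 27 of 39 members in T24 and for 22 in 5637, but for 10 in TCC-SUP and 10 in CLS-439. It was the highest for 24 members in CLS-439, 16 in TCC-SUP, 13 in 5637 and 11 in T24. The median change of genes over 150 kb was smallest in replicate 1 of each line, at -0.3, -0.39 and -0.49 in T24, 5637 and TCC-SUP, against -0.51 to -1.16 in the others. Without treated replicate 1 of T24, members called in T24 went from 6 to 13 higher and from 3 to 5 lower, and genes from 3162 to 3584 higher and from 2785 to 3383 lower. In TCC-SUP the library that stood apart was treated replicate 3, with a median member change of 0.0037 against 0.29 and 0.3. Without it, 7 members were called higher and 0 lower there, in place of 11 and 2. Genes went from 1993 to 954 higher and from 2313 to 1255 lower. The TCC-SUP counts also moved without untreated replicate 1 (6 higher, 0 lower), untreated replicate 4 (5 and 0), treated replicate 4 (5 and 0) and, for falls, untreated replicate 3 (0). Over all genes the counts were then 1192 higher and 1745 lower, 1268 and 1710, 1397 and 1672, and 1266 and 1859, in this order.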

How the data were processed

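RNA from 24 libraries (4 cell lines, untreated or treated with mitomycin C, 3 libraries per group) had been prepared as stranded, poly(A)-selected libraries, per the labels' protocols. The authors deposited whole-number read counts per gene ID. STAR 2.5.3a, featureCounts 1.6.2 and GRCh38 are named in the submitters' processing notes. Annotation release, strand setting and handling of multi-mapped reads were not given in the sources used here.

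Groups were taken from the labels, where the treatment is also spelled MCC. GENCODE 29 gave symbols, positions and exon lengths for 58216 of 58381 IDs, and the other 165 held 0.0072% of reads. The 20820 genes that passed edgeR's filterByExpr held 99.94% of reads, all 39 members among them. Counts were scaled by TMM and tested with the quasi-likelihood test of edgeR 4.0.16 in R 4.3.3, with 1 fit over the 8 groups. P-values were adjusted by Benjamini-Hochberg over all tested genes, and a call is an adjusted p under 0.05. Intervals are 95%. A fold change printed for several lines is the mean of their log2 fold changes. The fit was tested on simulated data. The design text calls libraries biological replicates, and no 2 of a group agreed within counting noise (lowest chi-square per gene 3.83).

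The members and lists were chosen with earlier results of these data known. Values in each library are given for the 2 members per role group with the smallest p for the mean response, plus, for responses and for untreated levels, the 4 that differ among lines with the smallest p. Promoters are shown for the 4 smallest p among rises and the smallest among falls, chromosome 8 left out. Of the pathway partners, the 3 largest rises and falls are named. Values of FANCC were added after its libraries were seen to disagree.

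Whether equal replicate numbers pair untreated and treated libraries was checked by the correlation of their deviations from the group means. Over all tested genes no line had every correlation over 0.1. Over genes at 10 CPM or more, 5637 (0.373, 0.2 and 0.56) and CLS-439 (0.419, 0.345 and 0.147) did, while T24 (0.477, -0.284 and 0.538) and TCC-SUP (0.0712, -0.0501 and -0.276) did not. The numbers thus meet the pairing criterion in 5637 and CLS-439. The reported fit has no block. Response calls of members that the block changes are given with the results for single lines, and in the closing section for the mean response. Alternatives were DESeq2 1.42.0, RLE scaling, no filter, a replicate block, single lines, no CLS-439, and leaving out libraries.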

Additional observations from a re-analysis of the deposited data

Results flagged for a closer look

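Responses to mitomycin C that differed between cell lines were listed for a closer look. Groups of 3 libraries are too small for a check of single outlying libraries. Among T24, 5637 and TCC-SUP the response of RBBP8, the CtIP gene, differed with an adjusted p of 0.000286, and that of RMI2 with an adjusted p of 0.0468. RBBP8 fell in 5637 and not in the others, so that its log2 response in 5637 minus T24 was -3.35 and in TCC-SUP minus 5637 was 3.1. RMI2 responded more in 5637 than in T24, by 0.91, and FANCB more in TCC-SUP than in T24, by 1.25.

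The 6 members that rose in the 3 lines responded less in CLS-439 than in their mean. The log2 difference was -0.53 for FANCG, -1.3 for FAAP24, -1.2 for UBE2T, -0.8 for DCLRE1B, -1.41 for XRCC3 and -0.85 for RAD54L. Only the XRCC3 difference kept its call under all alternatives. The 6 members had been picked by their rise in those lines, which are 1 side of this difference.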

How the results depend on the processing

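Of 6864 values of single members compared with alternatives, 6587 kept their side of the threshold, 170 lost a call and 107 gained one. Of values called in the main fit or the alternative, 0 reversed direction. Changes of direction were not counted for values called in neither. Calls held under all alternatives for NBN, RAD54L and XRCC3 in T24, for DCLRE1B, FAAP24, FANCG, RAD54L, RBBP8, UBE2T and XRCC3 in 5637, and for DCLRE1B, RAD54L and XRCC3 in TCC-SUP. On the mean response they held for 9 of 21: BARD1, DCLRE1B, FAAP24, FANCE, FANCG, NBN, RAD54L, UBE2T and XRCC3. For the CLS-439 response minus the mean of the 3 lines they held for 1 of 6, XRCC3. Of the response differences between pairs of lines, calls held for 0 of 2 (5637 minus T24), 0 of 1 (TCC-SUP minus T24) and 0 of 1 (TCC-SUP minus 5637). The causes of the shifts below were not tested.

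Without CLS-439, counts of members went from 11 to 7 higher and from 2 to 0 lower in TCC-SUP, from 1 to 0 higher for the 5637 and TCC-SUP responses minus T24, from 2 to 1 for differing responses and from 1 to 0 higher for untreated TCC-SUP minus T24. Over all genes, TCC-SUP calls went from 1993 to 1566 higher and from 2313 to 2061 lower. The other counts over all genes went, in the same order, from 353 to 222, 287 to 143, 1429 to 937 and 5915 to 5590. DESeq2 gave 1 lower in CLS-439, 2 lower for the TCC-SUP response minus 5637 and 4 differing responses, and RLE scaling gave 1 differing response. Counts over all genes were then 157, 657, 2510 and 1424, against 67, 360, 1429 and 1429 in the main fit. With no filter, 1 was lower in CLS-439, 1 higher in CLS-439 minus the mean and 0 higher in 5637 minus T24. The same counts over all genes were 216, 1235 and 476 (main fit 67, 995 and 353). Lines fitted alone gave 1 lower in T24, and 1 higher and 3 lower in CLS-439. For all genes these were 1663, 292 and 381 (main fit 2785, 62 and 67). With the replicate block, 5 were higher in untreated 5637 minus T24, and 5 higher and 10 lower in untreated TCC-SUP minus T24. Counts over all genes were then 3957, 5046 and 3914 (main fit 5104, 5915 and 4771). On the mean response the block added calls of RAD50, BRCA2, BRIP1 and FAAP100 (adjusted p 0.0462, 0.0329, 0.0398 and 0.0121) and ended that of RMI1. The block changed no other count of members by over 1.5 times. In the last 200 bases of the promoter windows 2 members, not 5, had a cell cycle homology region.

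Leaving out replicates gave these ranges of higher and lower members: T24 2 to 13 and 1 to 6, 5637 6 to 16 and 1 to 4, TCC-SUP 3 to 13 and 0 to 3, CLS-439 0 to 0 and 0 to 1, mean response 9 to 20 and 2 to 10. For responses they were 0 to 1 and 0 to 1 (5637 minus T24), 0 to 2 and 0 to 1 (TCC-SUP minus T24), 0 to 1 and 0 to 1 (TCC-SUP minus 5637), 0 to 2 and 1 to 7 (CLS-439 minus the mean), and 0 to 4 for differing responses. For untreated levels they were 3 to 5 and 7 to 19 (5637 minus T24), 0 to 2 and 10 to 22 (TCC-SUP minus T24), 7 to 11 and 11 to 15 (TCC-SUP minus 5637), 8 to 9 and 12 to 20 (CLS-439 minus the mean), and 24 to 34 for differing levels. Calls over all genes moved too. Genes called higher ranged from 820 to 3610 (T24), 1017 to 3774 (5637), 100 to 2830 (TCC-SUP), 3 to 109 (CLS-439) and 2795 to 5128 (mean response). Genes called lower ranged, in that order, over 753 to 3613, 875 to 3842, 173 to 3381, 0 to 192 and 2591 to 4805. Differing responses ranged from 45 to 2266 genes and differing untreated levels from 11237 to 14660.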
